A study of Mus musculus with 6 samples.

Results

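The transcription factors that pattern the mesenchyme of the stomach, the spleen and the wider splanchnic mesoderm were followed in the dorsal pancreas of Bicc1 knockout (KO) and wild-type (WT) mouse embryos. They are the 10 listed genes Six2, Barx1, Nkx3-2, Nkx2-5, Tlx1, Pitx1, Msx1, Osr1, Tcf21 and Foxf1, and all 10 were found, by symbol, among the 24389 genes of the deposited files. The list was drawn up with earlier results of this same contrast known, among them a higher Six2 in KO libraries. The differences between KO and WT in these genes are therefore given as a description, with no test. There were 3 Bicc1 KO and 3 WT libraries, all from E13.5 dorsal pancreas on a mixed C57BL/6 and ICR background. The Bicc1 product, Bicaudal C1, binds RNA, and the study asked how its deletion alters the pancreatic mRNA profile. The labels give the knockout no allele name and do not say whether a library is 1 embryo or a pool, so the spread between libraries may in part be technical. They also do not say how the pancreas was separated from the stomach wall and the spleen.

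In the mouse embryo the dorsal pancreatic bud grows into mesenchyme of the dorsal mesogastrium, which is continuous with the mesenchyme of the stomach and which also gives rise to the spleen primordium. Barx1 marks stomach mesenchyme, where it dampens Wnt signalling, and Six2 and Nkx2-5 mark its posterior end at the pylorus. Tlx1, Nkx2-5, Nkx3-2 and Tcf21 belong to the network that builds the spleen, and Nkx3-2 is needed for the spleen to separate from the pancreas. Foxf1 and Osr1 are broader factors of lateral and splanchnic mesoderm. The dorsal pancreas therefore lies next to domains of these genes.

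The regulatory sequence at the start of the 4 genes whose KO values all lay above their WT values is shown here, with that of Tlx1, whose level in a single KO library stood apart. Promoters were taken from RefSeq as 250 bases before to 50 bases after the gene start, on build GRCm38.p6, and 7 of the 10 factors had one, while Pitx1, Osr1 and Foxf1 had none. Each is printed 5′ to 3′ on the strand of the gene. Capitals mark TGACAG, a motif of Meis-type homeodomain proteins, and TGATTNAT, a motif of Pbx with Hox-type partners, on either strand.
Six2 (GRCm38.p6, chr17:85688205-85688504, minus strand): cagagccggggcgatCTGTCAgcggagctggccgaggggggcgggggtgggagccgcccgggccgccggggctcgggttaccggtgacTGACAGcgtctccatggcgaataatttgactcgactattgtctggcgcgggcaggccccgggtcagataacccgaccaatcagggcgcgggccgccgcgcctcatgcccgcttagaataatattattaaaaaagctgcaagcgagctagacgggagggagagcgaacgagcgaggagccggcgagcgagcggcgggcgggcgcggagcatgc
Nkx3-2 (GRCm38.p6, chr5:41764171-41764470, minus strand): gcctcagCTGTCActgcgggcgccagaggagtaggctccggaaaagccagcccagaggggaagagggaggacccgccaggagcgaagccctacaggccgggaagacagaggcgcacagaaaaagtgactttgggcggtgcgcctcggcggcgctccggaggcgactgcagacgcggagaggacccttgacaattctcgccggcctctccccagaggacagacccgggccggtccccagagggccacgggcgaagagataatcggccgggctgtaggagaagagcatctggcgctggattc
Nkx2-5 (GRCm38.p6, chr17:26841516-26841815, minus strand): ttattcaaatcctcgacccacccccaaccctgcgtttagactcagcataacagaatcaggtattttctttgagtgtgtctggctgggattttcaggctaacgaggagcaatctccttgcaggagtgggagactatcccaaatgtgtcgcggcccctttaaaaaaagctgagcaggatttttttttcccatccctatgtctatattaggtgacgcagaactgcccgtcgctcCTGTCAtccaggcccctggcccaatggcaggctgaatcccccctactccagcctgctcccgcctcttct
Barx1 (GRCm38.p6, chr13:48662786-48663085, plus strand): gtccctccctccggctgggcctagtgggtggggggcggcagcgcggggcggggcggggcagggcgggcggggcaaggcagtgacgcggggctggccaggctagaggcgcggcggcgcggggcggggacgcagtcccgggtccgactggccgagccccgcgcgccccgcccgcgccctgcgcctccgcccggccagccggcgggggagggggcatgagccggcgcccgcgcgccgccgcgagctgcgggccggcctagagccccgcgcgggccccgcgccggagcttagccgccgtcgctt
Tlx1 (GRCm38.p6, chr19:45150465-45150764, plus strand): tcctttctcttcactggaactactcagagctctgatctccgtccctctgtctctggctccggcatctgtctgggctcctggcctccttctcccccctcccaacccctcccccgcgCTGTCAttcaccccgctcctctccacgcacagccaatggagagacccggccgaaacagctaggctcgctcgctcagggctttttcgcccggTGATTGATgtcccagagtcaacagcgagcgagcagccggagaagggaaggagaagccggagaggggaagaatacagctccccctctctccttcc
TGACAG occurred in 4 of the 7 promoters, those of Six2, Nkx3-2, Nkx2-5 and Tlx1, and in 19.2% of all 32851 promoters of the same length. The Six2 promoter held 2 copies. TGATTNAT occurred in 1 of the 7, that of Tlx1, and in 3.22% of all promoters. The homeodomain core TAAT occurred in 4 of the 7 and in 58% of all promoters, and AAGTG, the core bound by NK2-class factors, in 1 of the 7, Nkx3-2, and in 46.4%. The first 2 motifs do not overlap each other in these sequences. Such matches describe the letters in these windows and are not binding sites. Promoter GC content was 67.3% for Six2, 84.7% for Barx1, 66.7% for Nkx3-2, 51.7% for Nkx2-5 and 61.7% for Tlx1, and the median of all promoters was 52.7%.

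The files hold 1 value per gene and library, with a floor of 0.01 and no stated unit. No read counts can be had from them, so library depth is unknown and counting intervals cannot be computed. Levels are compared mainly for 1 gene between libraries. Values of different genes are set together to filter, to choose genes to name and to sum lists. Such sums are led by the genes with the highest values and can hide a gene whose groups are apart. Bicc1, the deleted gene, was 3.96 to 4.91 in KO libraries and 18.2 to 19.7 in WT libraries, and its log2(value + 1) change was -1.89 (SE 0.087; adjusted p = 0.00067 in limma with Benjamini-Hochberg adjustment). It was 1 of 2 genes past an adjusted p of 0.05 among 13911 tested (0.0144%). That count was 1 without KO 1, KO 3, WT 1 or WT 3 and 8 without KO 2. The libraries also differed in a trend on GC content that ran across both groups but was not balanced between KO and WT. Genotype and this trend cannot be fully told apart. Across genes, Spearman's rho between GC content and a gene's deviation in a library was positive in KO 1, KO 2 and WT 3 (0.405 to 0.615) and negative in KO 3, WT 1 and WT 2 (-0.657 to -0.186). Differences are therefore also given within each of these sides, first among the GC-positive libraries (KO 1, KO 2, WT 3), then among the GC-negative ones (KO 3, WT 1, WT 2).

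Six2, Barx1, Nkx3-2 and Nkx2-5, the factors of stomach, pylorus and splenopancreatic mesenchyme, were each higher in every KO library than in any WT library. These were 4 of the 10 factors with groups apart in that direction, and 0 were apart in the other, where 7.67% of all genes tested had every KO value above every WT value and 8.77% had every KO value below. Over all genes in the files, tested or not, the shares were 7.62% and 6.33%. All 10 had a higher mean log2 level in KO, as did 7448 of the 13911 genes tested. The differences of Pitx1, Foxf1 and Osr1 were at most 0.05. The median difference was 0.52 over the 10, beside 0.01 over all genes tested. Without KO 3 that median over the 10 was 0.24. It was 0.19 among the GC-positive libraries and 0.76 among the GC-negative ones. Nothing is read from these counts, since the list was chosen on this contrast. The number of factors apart was 4 to 8 when 1 library was left out, and it was 8 without KO 2, where 11.8% of tested genes lay above. Leaving out a library cannot lower this number, since groups already apart stay apart. A filter on a mean value of at least 1 was passed by 7 of the 10. Six2, Nkx3-2 and Msx1 had WT means under 1 and passed it through their KO libraries, and Nkx2-5, Foxf1 and Pitx1 did not pass. In bulk tissue, a different number of expressing cells and a different amount of RNA per cell cannot be told apart.

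**Figure D1:**
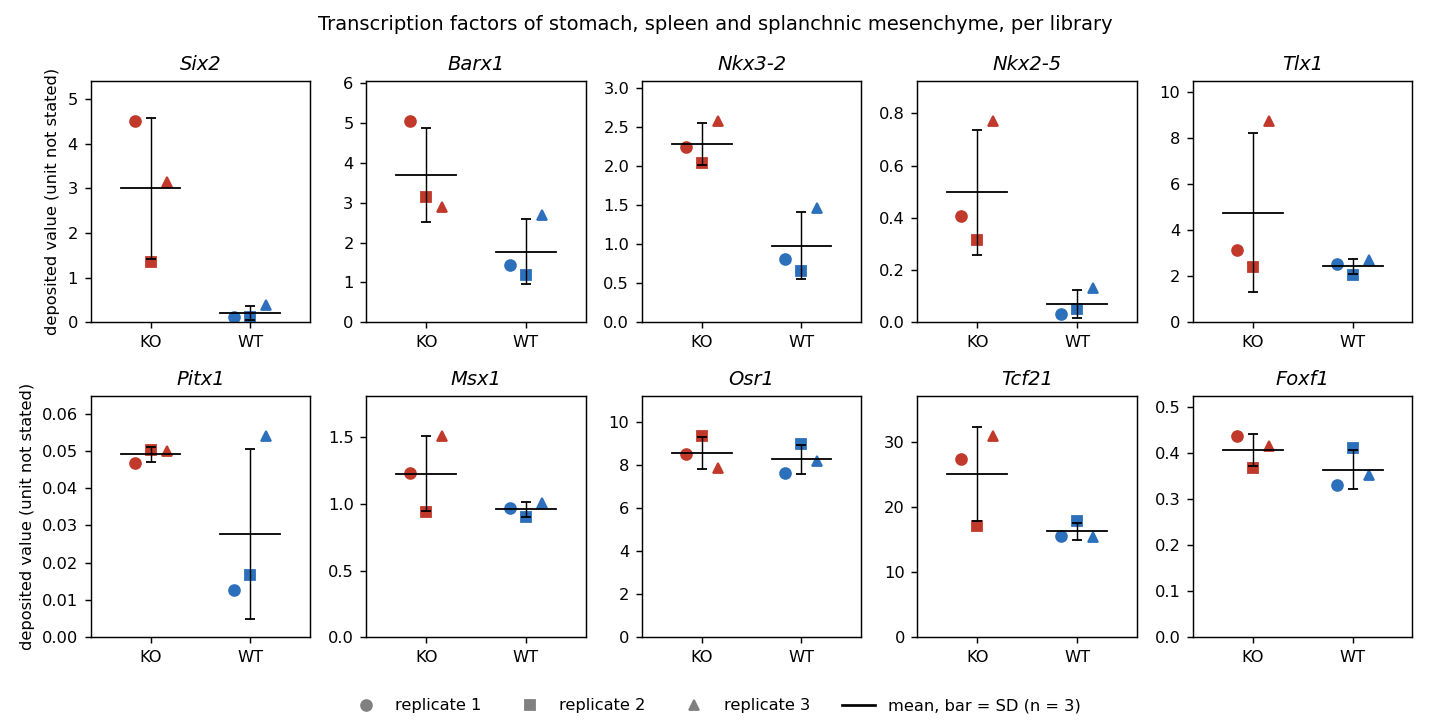
Deposited value (unit not stated, linear axis from 0, its own range in each panel) of the 10 transcription factors in the 3 KO libraries, left, and the 3 WT libraries, right; symbols mark the replicate number, the line is the mean and the bar the SD (n = 3). The KO points of Six2, Barx1, Nkx3-2 and Nkx2-5 all sit above the WT points, while Tlx1 has a single high KO library at 8.71.

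Six2 (ENSMUSG00000024134), a homeobox gene of pyloric and stomach mesenchyme that also maintains nephron progenitors, had the highest ratio of KO to WT means of the 10. Its value was 4.50 (KO 1), 1.35 (KO 2) and 3.14 (KO 3), with WT levels of 0.122 (WT 1), 0.119 (WT 2) and 0.387 (WT 3). The KO libraries differed among themselves, with KO 2 lowest, yet KO 2 still lay above the highest WT library. The KO mean was 3.00 ± 1.58 and the WT mean 0.209 ± 0.154 (SD, n = 3 each), a ratio of 14.3. On the log2(value + 1) scale, which understates changes of low genes, the difference was 1.65, and with a pseudocount of 0.1 it was 3.28. It was 1.37 among the GC-positive libraries and 1.88 among the GC-negative ones. Both had to be positive, since every KO value lay above every WT value.

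Barx1 (ENSMUSG00000021381), the homeobox gene that specifies stomach mesenchyme, was 5.04 (KO 1), 3.14 (KO 2) and 2.90 (KO 3), with WT levels of 1.44 (WT 1), 1.18 (WT 2) and 2.70 (WT 3). KO 1 was the highest library, as for Six2, and the gap between KO 3 and WT 3 was small. The KO mean was 3.69 ± 1.17 and the WT mean 1.78 ± 0.815 (SD, n = 3 each), a ratio of 2.08 and a log2 difference of 0.77. Among the GC-positive libraries the difference was 0.43, and after correction for GC content it was 0.45, so over 1.5 times smaller in both. Among the GC-negative libraries it was 0.76.

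Nkx3-2 (ENSMUSG00000049691), also known as Bapx1, was 2.25 (KO 1), 2.04 (KO 2) and 2.58 (KO 3), with WT levels of 0.817 (WT 1), 0.656 (WT 2) and 1.47 (WT 3). Its KO libraries lay close together, and WT 3 was again the highest WT library. The KO mean was 2.29 ± 0.271 and the WT mean 0.981 ± 0.431 (SD, n = 3 each), a ratio of 2.33 and a log2 difference of 0.75. The difference was 0.35 among the GC-positive libraries, 1.04 among the GC-negative ones, and 0.40 after GC correction.

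Nkx2-5 (ENSMUSG00000015579), a homeobox gene of the heart that is also used in the pyloric sphincter and the spleen primordium, was present only at low values. It was 0.408 (KO 1), 0.315 (KO 2) and 0.770 (KO 3), with WT levels of 0.0313 (WT 1), 0.0501 (WT 2) and 0.131 (WT 3). The WT values were near the floor of the files and KO 3 was the highest library. The KO mean was 0.498 ± 0.240 and the WT mean 0.071 ± 0.0532 (SD, n = 3 each), a ratio of 7.02. Its log2 difference of 0.47 became 1.78 with a pseudocount of 0.1. It was 0.27 among the GC-positive libraries and 0.77 among the GC-negative ones.

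Most of the 10 factors are rich in G and C, whether or not their groups overlapped. The longest annotated transcript had a GC content of 61.2% for Six2, 65.0% for Barx1, 67.7% for Nkx3-2 and 67.1% for Nkx2-5. It was 65.8% for Pitx1, 61.3% for Tlx1, 58.2% for Msx1, 57.0% for Osr1 and 54.4% for Foxf1, while the median over the 13385 tested genes with a value was 49.3%. The highest WT library of the first 4 genes was WT 3, the WT library with a positive trend on GC. The GC-corrected log2 difference of Six2 was 1.38. The part of GC content in the differences beyond this correction was not tested.

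Tlx1 (ENSMUSG00000025215), the homeobox gene without which the mouse spleen is lost, was high in 1 library. It was 3.15 (KO 1), 2.41 (KO 2) and 8.71 (KO 3), with WT levels of 2.53 (WT 1), 2.07 (WT 2) and 2.71 (WT 3). KO 3 was 2.77 times the next highest library, and the other 5 libraries lay between 2.07 and 3.15, with the groups overlapping. The KO mean was 4.75 ± 3.45 and the WT mean 2.43 ± 0.329 (SD, n = 3 each). The log2 difference was 0.59 with all libraries and 0.13 without KO 3. It was 0.02 among the GC-positive libraries, against 1.56 among the GC-negative ones.

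Tcf21 (ENSMUSG00000045680), a bHLH factor of visceral mesenchyme that the spleen also needs, was 27.4 (KO 1), 17.1 (KO 2) and 31.0 (KO 3), with WT levels of 15.5 (WT 1), 17.9 (WT 2) and 15.5 (WT 3). KO 1 and KO 3 were high and KO 2 lay among the WT libraries. The KO mean was 25.2 ± 7.22 and the WT mean 16.3 ± 1.36 (SD, n = 3 each), a log2 difference of 0.56. With a transcript GC content of 49.9%, near the median, its difference moved little under GC correction, to 0.53. It was 0.80 without KO 2 and 0.39 without KO 3, and 0.46 among the GC-positive libraries and 0.86 among the GC-negative ones.

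The KO and WT values of the remaining factors overlapped. Osr1 (ENSMUSG00000048387), a zinc finger gene of intermediate and lateral mesoderm, was 8.51, 9.32 and 7.84 in KO 1, KO 2 and KO 3, against 7.62, 8.96 and 8.18 in WT 1, WT 2 and WT 3. The groups overlapped, and the log2 difference of 0.05 turned negative in 5 of 19 alternatives, with a lowest value of -0.14. That lowest value came after GC correction and is counted both with and without the replicate block, which leaves it unchanged. The difference was 0.11 among the GC-positive libraries and -0.07 among the GC-negative ones. Foxf1 (ENSMUSG00000042812), a forkhead factor of splanchnic mesoderm downstream of hedgehog signalling, was 0.436, 0.366 and 0.415 in the KO libraries, against 0.329, 0.409 and 0.352 in the WT libraries. All 6 values lay within a narrow band. Msx1 (ENSMUSG00000048450), a homeobox gene of BMP-responsive mesenchyme, was 1.23, 0.940 and 1.51 in the KO libraries, against 0.971, 0.900 and 1.005 in the WT libraries. KO 3 was again the highest, and the log2 difference of 0.18 became -0.04 after GC correction. It was 0.089 without KO 3 and 0.27 without KO 2, and 0.055 among the GC-positive libraries and 0.37 among the GC-negative ones. Pitx1 (ENSMUSG00000021506), a homeobox gene of hindlimb identity, lay near the floor, with KO values of 0.0469, 0.0503 and 0.0501 and WT values of 0.0127, 0.0166 and 0.054, too low to compare. Of its annotated exonic bases 4.07% are shared with a gene on the same strand and 6.21% with one on the other, and Foxf1 shares 4.06% with a gene on the other strand.

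**Figure D2:**
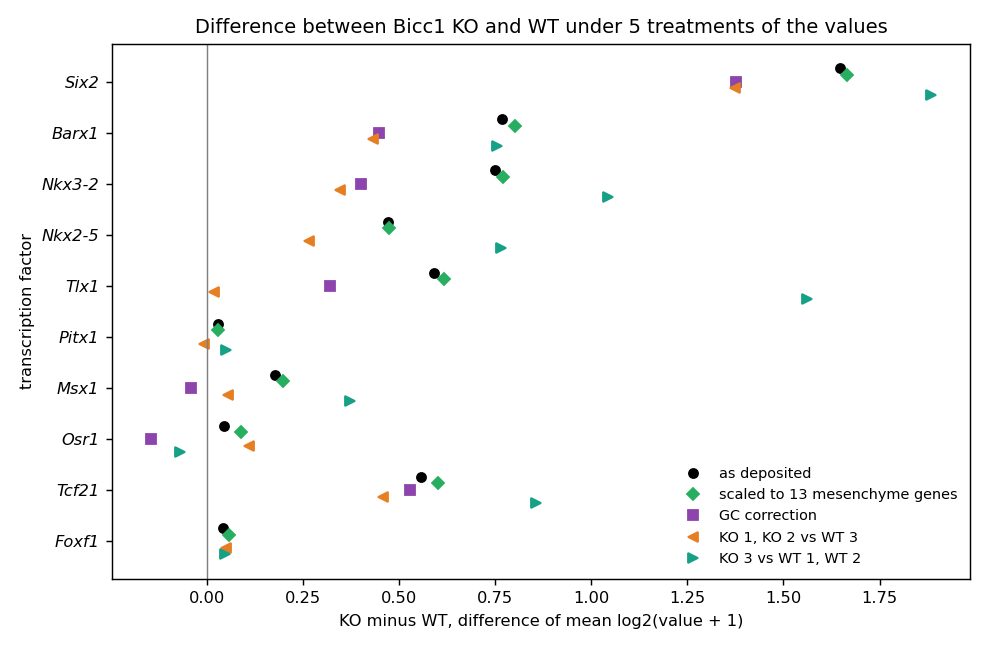
Difference between KO and WT of mean log2(value + 1) for each factor (horizontal axis), as deposited, scaled to 13 general mesenchyme genes, after GC correction (the 7 factors that passed the filter), and within the 2 sides of the GC split. Six2 stays between 1.37 and 1.88 in all 5, Tlx1 spans 0.02 to 1.56, and Osr1 lies on both sides of 0.

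The factors did not peak in the same KO library. KO 1 had the highest Six2 and Barx1, together with Foxf1. KO 3 had the highest Tlx1, Nkx2-5, Nkx3-2, Tcf21 and Msx1, so 5 of the 10 factors peaked there, where 16.4% of all tested genes did. The list was chosen on this contrast, which favours peaks in KO libraries, so nothing is read from this count. Nkx2-5, Foxf1 and Pitx1 were not among the tested genes. KO 2, in which 30.9% of all tested genes peaked, was the highest library for Osr1 only, and WT 3 for Pitx1. In Six2, Barx1, Nkx3-2, Nkx2-5, Tlx1, Msx1 and Pitx1, WT 3 was the highest WT library.

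Other regulators of stomach, pylorus and spleen mesenchyme came from a list of their own. Of 16 listed genes 15 were in the files and 12 were tested. In limma 0 rose and 0 fell at an adjusted p of 0.05, beside 0.0144% of all tested genes past it. There were 3 at an unadjusted p under 0.05, all higher in KO, and 10.3% of all tested genes passed that level, 5.89% higher and 4.36% lower in KO. Groups were apart upwards in 3 of the 12, beside 7.67% of all tested genes, and the median log2 difference was 0.11. The 3 genes with the highest values had overlapping groups. Sfrp1, a secreted Wnt antagonist induced by Barx1 in the mouse stomach, averaged 86.9 ± 13.9 in KO and 88.9 ± 10.7 in WT (SD, n = 3 per group). Nr2f2, a nuclear receptor of visceral mesenchyme, averaged 51.7 ± 12.1 in KO and 48.3 ± 4.54 in WT. Hand2, a bHLH factor of gut mesoderm, averaged 23.9 ± 2.63 in KO and 23.4 ± 1.16 in WT. Their adjusted p in limma was 0.85 to 0.91.

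Within this list 3 further genes were chosen after their values were seen. Cyp26b1, a retinoic acid degrading enzyme, was 2.81 (KO 1), 2.03 (KO 2) and 5.24 (KO 3), with WT levels of 1.29 (WT 1), 1.46 (WT 2) and 1.97 (WT 3) (log2 difference 0.70, SE 0.25, adjusted p = 0.47 in limma). Wt1, a zinc finger gene of mesothelium and spleen primordium, was 14.6 (KO 1), 10.7 (KO 2) and 25.1 (KO 3), with WT levels of 13.2 (WT 1), 15.4 (WT 2) and 13.48 (WT 3). The groups of Wt1 overlapped (log2 difference 0.16, SE 0.26, adjusted p = 0.78 in limma), and KO 2 was its lowest library. KO 3 held the highest value of both Cyp26b1 and Wt1, as it did for Tlx1. Of the 15 other regulators 3 peaked in KO 3, 5 in KO 1 and 4 in KO 2, where 16.4%, 7.53% and 30.9% of all tested genes did. Gata3, expressed in the pyloric sphincter among other tissues, was 10.6 (KO 1), 8.02 (KO 2) and 8.57 (KO 3), with WT levels of 5.78 (WT 1), 7.23 (WT 2) and 7.28 (WT 3) (log2 difference 0.37, SE 0.12, adjusted p = 0.47 in limma). The highest library of Gata3 was KO 1, as for Six2 and Barx1.

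**Figure D3:**
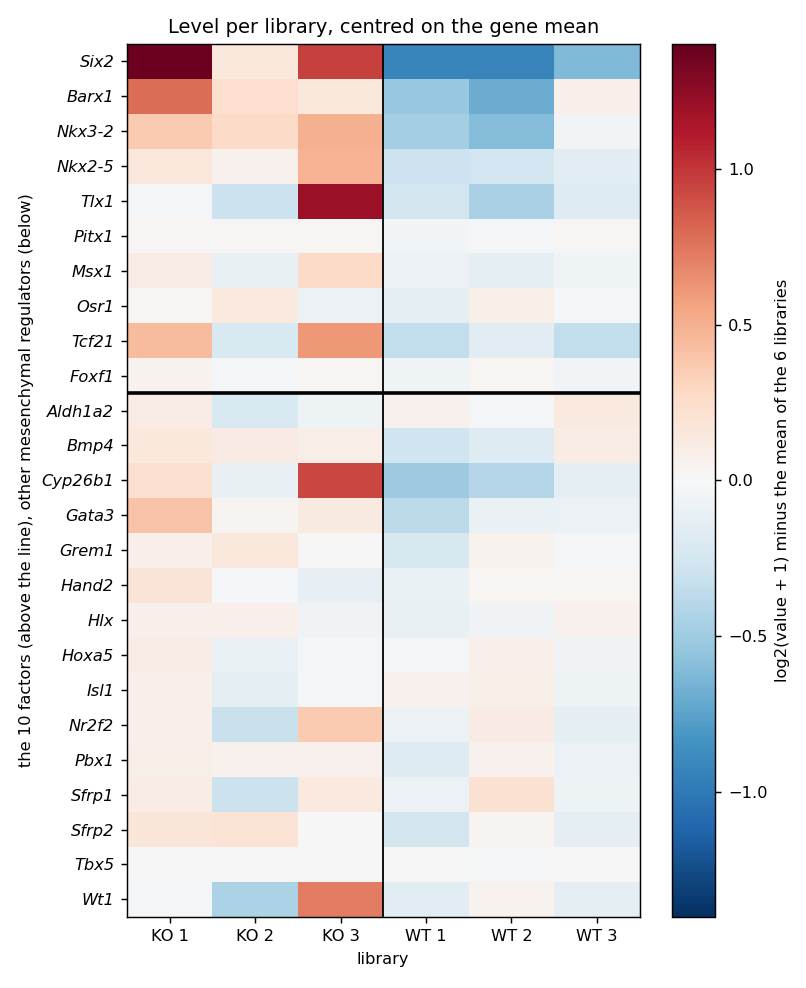
Level of the 10 factors (above the line) and of 15 other mesenchymal regulators (below) in each library, as log2(value + 1) minus the mean of the 6 libraries, red above and blue below that mean, KO columns left of WT columns. KO 1 is reddest for Six2 and Barx1, and KO 3 for Tlx1, Cyp26b1 and Wt1.

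The paralogues of the 10 factors were mostly under the filter. Of 16 listed, 11 were in the files and 5 were tested. In limma 0 of them were past the threshold, beside 0.0144% of all tested genes. At an unadjusted p under 0.05 in limma there were 2, both higher in KO. At that level 5.89% of all tested genes were higher and 4.36% lower. Nkx2-3, the NK2 gene of gut and spleen mesenchyme, averaged 10.1 in KO and 9.34 in WT, Six5 averaged 4.21 in KO and 3.37 in WT, and Osr2 averaged 3.10 in KO and 3.01 in WT. Six5, at an adjusted p of 0.47 in limma, was 3.81 to 4.44 in KO libraries and 3.17 to 3.77 in WT libraries, so its groups did not overlap. Foxf2, named with its values known, was 0.104 to 0.135 in KO libraries and 0.0117 to 0.108 in WT libraries.

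Markers of the organs around the dorsal pancreas were set beside these values. Epithelial genes of the stomach were low in every library. Of 14 listed, 11 were in the files and 0 passed the filter. Sox2, a factor of foregut and stomach epithelium, was 0.721 to 1.01 in KO libraries and 0.779 to 1.195 in WT libraries, and Ctse and Cldn18, genes of gastric epithelium, stayed at 0.105 to 0.616 over all 6. The 10 genes other than Sox2 stayed under 1 in each library, with Gkn1 and Psca at no more than 0.016. The summed level of the list was 1.94 to 2.12 in KO and 1.92 to 2.35 in WT, and the groups overlapped. At such low values these markers say little about how much stomach tissue a library held. Intestinal markers summed to 0.999 to 1.44 in KO and 1.31 to 1.54 in WT, and Cdx2, the factor of intestinal identity, was at no more than 0.050. The part of adjoining stomach tissue in the values of the factors was not tested.

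Liver and urogenital markers had overlapping sums. Liver genes summed to 28.8 to 56.4 in KO and 28.4 to 44.5 in WT, mostly through Serpina1a, while Afp was 5.54 to 7.69 in KO and 7.09 to 7.73 in WT. Genes of mesonephros, gonad and adrenal summed to 21.1 to 26.6 in KO and 21.7 to 25.0 in WT, mostly through Gata4, which the pancreatic epithelium also expresses. In that list Lhx9, a LIM homeobox gene of the gonad, was 4.04 in KO 3, with 1.80 to 2.19 in the other KO libraries and 1.97 to 2.08 in the WT libraries.

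The pancreatic tissue itself was present in all libraries. Epithelial markers summed to 467 to 707 in KO and 511 to 629 in WT, with KO 3 lowest and KO 2 highest, the reverse of their order in Tcf21. General mesenchyme summed to 802 to 891 in KO and 868 to 893 in WT, with Vim, an intermediate filament gene, at 231 to 260.2 in KO and 226 to 256 in WT. In that list 3 of 13 genes had every KO value below every WT value, and 1, Pdgfrb, had every KO value above. Prrx1, a homeobox gene of mesenchyme, was 133 to 137 in KO and 142 to 175 in WT (log2 difference -0.20, SE 0.088, adjusted p = 0.47 in limma). The others apart, named with their values known, were Dcn, a matrix proteoglycan gene, at 37.6 to 49.7 in KO and 56.2 to 71.2 in WT, Twist2, a bHLH gene, at 3.01 to 3.35 in KO and 3.49 to 3.99 in WT, and Pdgfrb, a growth factor receptor gene, at 28.8 to 32.1 in KO and 23.0 to 27.3 in WT. With libraries scaled to those 13 mesenchyme genes, the log2 difference was 1.67 for Six2, 0.80 for Barx1, 0.77 for Nkx3-2 and 0.62 for Tlx1. These were as large as without that scaling. The scaling factors ran from 0.91 (KO 1) to 1.09 (KO 3), so this step could move the differences only a little. The part of mesenchyme amount in the differences was not tested. Smooth muscle genes summed to 23.3 to 26.0 in KO, and to 15.7 in WT 1, 16.7 in WT 2 and 25.2 in WT 3. Mesothelial genes summed to 69.1 to 83.0 in KO and 68.8 to 78.0 in WT. Leukocyte genes summed to 41.0 to 58.1 in KO and 42.0 to 52.3 in WT, erythroid genes to 2622 to 4703 in KO and 2105 to 4239 in WT, and genes of enteric neurons and neural crest to 28.9 to 40.1 in KO and 35.4 to 37.6 in WT. Over all 13 lists 82 genes were tested, and 0 passed limma at an adjusted p of 0.05, beside 0.0144% of all tested genes. At an unadjusted p under 0.05 in limma 11 were higher and 3 lower, beside 5.89% and 4.36% of all tested genes. Groups were apart upwards in 9 of the 82 and downwards in 3, beside 7.67% and 8.77% of all tested genes.

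**Figure D4:**
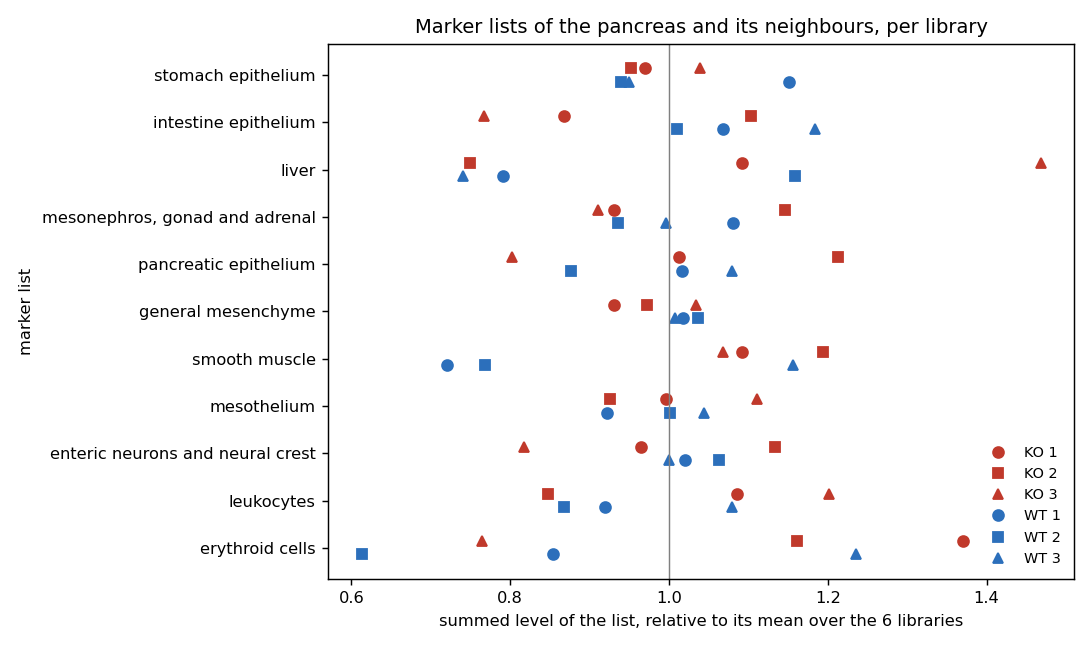
Summed level of each marker list per library, divided by its mean over all libraries (horizontal axis), KO in red above WT in blue, with symbols for the replicate. Stomach epithelium and general mesenchyme overlap between the groups, and smooth muscle is low in WT 1 and WT 2 but not in WT 3.

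The genes whose course over the 6 libraries lay nearest to that of Six2, by the root mean square difference of standardised log2 values, were Fxyd6 (0.088), Cma1 (0.114), Pcdhgc4 (0.134), Ctnnb1 (0.163) and Rnf113a1 (0.179). Standardising removes the size of a change, so Ctnnb1 is listed although it varied only between 461 and 481. Pcdhgc4 shares its constant exons with the other gamma protocadherins. Cma1, a chymase gene of connective tissue mast cells, was 3.27 (KO 1), 1.17 (KO 2) and 2.89 (KO 3). Its WT levels were 0.416 (WT 1), 0.287 (WT 2) and 0.466 (WT 3), so it passed the filter through its KO libraries. It was named for its nearness to Six2, so groups that lie apart follow from that choice. Nearest to Barx1 were Nme4 (0.102), 1810058I24Rik (0.112), Nxn (0.117), Efhd2 (0.128) and E130018N17Rik (0.133). None of the other tested factors was among the 5 nearest to either gene. From Six2, Nkx3-2 ranked 137, Tcf21 170 and Barx1 202, and Osr1 ranked 6721. From Barx1, Nkx3-2 ranked 433, Six2 509, Tcf21 3488 and Osr1 5830. Ranks are among the tested genes, and nothing is read from them, since the list was chosen on this contrast.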

How the data were processed

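RNA of E13.5 dorsal pancreata was made into TruSeq RNA v2 libraries, per the labels' protocols, a kit that does not mark strand. Bowtie 0.12.7, CASAVA 1.82 and mm9 appear in the processing notes that the submitters gave. How reads were counted or normalized was not found in the labels or headers. As deposited, each value is a signal of 0.01 or more for 1 gene, without a unit, and depth is unknown. Symbols were found for 22624 identifiers (92.8%). Promoters and GC content came from annotations of GRCm38, not the build of the files.

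Values were used as deposited. The 13911 genes with a mean of at least 1 entered a two-sided limma-trend fit of log2(value + 1) on group alone (limma 3.58.1, R 4.3.3), with Benjamini-Hochberg adjustment and a threshold of 0.05. The script was tested on simulated data. The factors and lists were chosen with earlier results of these data known. Named besides the 10 factors are Bicc1, in each list the members past the threshold or else up to 3 with the highest mean, and the 5 nearest profiles to Six2 and Barx1. Other genes carry a remark. Alternatives were 3 scalings, 2 filters, a pseudocount of 0.1, the replicate number as a block, a GC correction (loess, span 0.3, tested genes only), the GC side as a term or as a split, scaling to mesenchyme genes, and leaving out each library. Leaving out libraries for the count of factors apart was added after the data were seen. Figures were made with Python 3.11.15 and matplotlib 3.10.9.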

Additional observations from a re-analysis of the deposited data

How the results depend on the processing

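The number of genes past the threshold was 2, and it was 1 with no filter on low values, 4 after GC correction, and 1 to 8 when 1 library was left out. With the replicate number as a block it was 0, and 1 with the block and GC correction together. Deviations of same-numbered KO and WT libraries correlated at -0.216, -0.398 and -0.638. Same-numbered KO and WT libraries lie on opposite sides of the GC split. These correlations therefore cannot tell whether the replicate numbers pair the libraries. Members of the other lists past the threshold stayed at 0 in every alternative run. With at most 8 genes past it among all tested, that 0 was close to fixed, and nothing is read from it. The factors with every KO value above every WT value numbered 4 to 8 when 1 library was left out. That step cannot lower the number, so it does not test it. Of 184 recomputed differences of the 10 factors, 165 moved by less than the gene's own SD within groups and 19 by more. The 2 filters and the replicate block could not change a difference, and the block with GC correction repeats the GC correction. The 165 is therefore no measure of stability. Where that SD is wide a large move counts as small, as for Tlx1, at 0.59 with all libraries and 0.02 among the GC-positive ones. The difference stayed positive in all alternatives run for Six2, Barx1, Nkx3-2, Nkx2-5, Tlx1, Tcf21 and Foxf1. It turned negative in 5 for Osr1, 2 for Msx1 and 1 for Pitx1. In Six2, Barx1, Nkx3-2 and Nkx2-5, whose groups were apart, leaving out a library or splitting by GC side could not turn it negative. The counts of Osr1 and Msx1 hold the GC-corrected value both with and without the replicate block, which is the same estimate. With depth unknown, the counting error of the low values of Nkx2-5, Foxf1 and Pitx1 could not be computed.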
